A study of Mus musculus with 57 samples.

Results

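The effect of fluoxetine given during lactation was examined in the prefrontal cortex of wild-type (WT) mice. Of the 57 RNA sequencing libraries of the series, 18 belonged to this comparison by their labels: 10 WT fluoxetine libraries (5 female and 5 male) and 8 WT vehicle libraries (4 female and 4 male). The others came from WT mice given lithium and from mice heterozygous for Shank2 (HT) given fluoxetine, lithium or vehicle, of which 10 HT fluoxetine, 10 HT vehicle and 9 WT lithium libraries are set beside them here. All mice were of the C57BL/6N strain and were sampled on postnatal day 25. The pups had received drug or vehicle in the milk of the dam on postnatal days 3 to 24, before weaning. Treatment was thus given through the dam, and n counts pups, some of which may share a dam. The labels name neither a dose, nor what the vehicle was, nor the dam or litter of a pup. The p-values therefore reflect only the spread between pups, and effects of drug and litter cannot be told apart. In the main fit that spread was pooled over all 57 libraries of the series and not taken from these 18 alone. The labels do not specify the Shank2 allele further.

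Fluoxetine is a selective serotonin reuptake inhibitor. It blocks the serotonin transporter, encoded by Slc6a4, which returns released serotonin to the nerve terminal, so that more serotonin reaches receptors on other cells. The cell bodies of serotonin neurons lie in the raphe nuclei of the brainstem, and the prefrontal cortex holds their axons and many of the receptors. During early postnatal life serotonin also acts on the growth and wiring of the cortex.

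Expression is given as deposited normalized counts, which can be compared between libraries for a gene but not between genes, since they are not divided by transcript length. Changes are in log2 of the value + 1, fluoxetine over vehicle, averaged over females and males, with the standard error of the fit after ±. The 16659 genes with a mean value of at least 10 were tested, and a gene was called when its limma p was under 0.05 after Benjamini-Hochberg adjustment across them. Depth in reads is unknown, and 21509 to 23202 genes per library lay above zero. One library stood apart, WT vehicle male 2: its median correlation with the others was 0.968, against 0.977 to 0.985 for the other libraries of the comparison. Counts of calls and many list medians are therefore given with and without it. Most values of single genes, and the comparison with HT, are given only with it. Shank2, the scaffold gene that is heterozygous in the other genotype, was at 9588 ± 729 in WT fluoxetine and 9579 ± 1519 in WT vehicle libraries (SD, n = 10 and 8), with an adjusted p of 0.944 by limma.

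Under fluoxetine, 22 of 81 genes of cytosolic ribosomal proteins, 13 of 78 genes of nuclear-encoded respiratory chain subunits and 4 of 8 red cell genes fell. A smaller set of genes rose, among them 4 of 44 voltage-gated channel genes. Without WT vehicle male 2, 2 of these ribosomal protein genes and none of the other 3 sets were called. In all, 140 of 16659 genes were called (0.84%), of which 54 rose (0.324%) and 86 fell (0.516%), and 135 of the 140 were protein-coding. The changes were small: the median absolute log2 change of the called genes was 0.27, and 126 of them changed by less than 0.5. An unadjusted p under 0.05 was reached by 2538 genes (15.2%), with higher estimates for 8.37% and lower ones for 6.87% of all genes tested. Without WT vehicle male 2, limma called 5 genes (0.03%), 1 rise (0.006%) and 4 falls (0.024%), all of them among the 140. The count was also 2 with only the compared groups in the fit, 41 with no filter on low values and 0 with a term for the transcript length trend of each library. The 140 genes all kept their direction and an unadjusted p under 0.05 without that library, with a median absolute change of 0.21. They were chosen in a fit that shares all the other libraries, so this is no separate test of them. Of all 16659 genes tested, 1771 had an unadjusted limma p under 0.05 without that library.

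**Figure D1:**
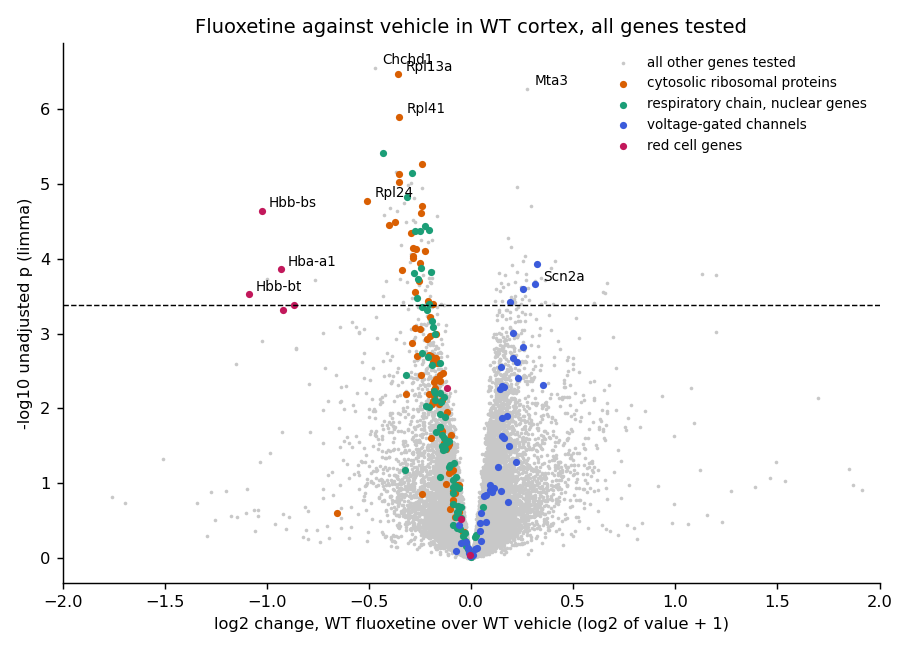
Log2 change of each gene tested (x axis, WT fluoxetine over WT vehicle) against -log10 of its unadjusted limma p (y axis); points above the dashed line were called, and colours mark 4 gene lists. Ribosomal and respiratory chain genes lie mostly left of 0, the globins far to the left and most channel genes to the right; 8 genes beyond 2 on either side are not drawn.

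The 5 genes called without WT vehicle male 2 were Chchd1, Rpl13a, Rpl41 and Mtln, which fell, and Mta3, which rose. All 5 also passed in the other fits that left out 1 of the 18 libraries of the comparison. No other gene could pass all 18 fits, since the fit without WT vehicle male 2 is 1 of them. With only the compared groups in the fit, Rpl41 was called (adjusted p = 0.0273 by limma) and the other 4 were not (adjusted p = 0.0536 to 0.0811). With that length term none of the 5 was called, with adjusted p of 0.102 for 4 of them and 0.299 for Mtln by limma. Chchd1 (ENSMUSG00000063787, chromosome 14, 20703006 to 20704425, plus strand, GRCm38) encodes a protein of the mitochondrial ribosome. Its normalized counts were 305, 273, 237, 221 and 281 in WT fluoxetine females and 303, 310, 285, 231 and 299.9 in WT fluoxetine males, against 345, 391, 372 and 373 in WT vehicle females and 323, 546, 355 and 357 in WT vehicle males. Every fluoxetine library lay below every vehicle library, and WT vehicle male 2, at 546, was the highest. The log2 change was -0.47 ± 0.08 (adjusted p = 0.00288 by limma), and -0.39 without that library (adjusted p = 0.0278).

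Rpl13a (ENSMUSG00000074129, chromosome 7, 45125558 to 45128761, minus strand), a protein of the large ribosomal subunit, was also separated between the groups. It ran from 3794 to 4717 in WT fluoxetine libraries, with a median of 4250, and from 4773 to 7665 in WT vehicle libraries, with a median of 5268. It fell by 0.36 ± 0.06 (adjusted p = 0.00288 by limma). Rpl41 (ENSMUSG00000093674, chromosome 10), whose product is a very short protein of the same subunit, ran from 4458 to 5901 in WT fluoxetine and from 5641 to 8113 in WT vehicle libraries. These ranges overlapped, but all 10 fluoxetine libraries lay below the vehicle median, and the gene fell by 0.35 ± 0.06 (adjusted p = 0.00528 by limma). Mtln (ENSMUSG00000051319, chromosome 2) encodes mitoregulin, a small protein of the inner mitochondrial membrane. It ran from 244 to 349.4 in WT fluoxetine and from 348.7 to 424 in WT vehicle libraries and fell by 0.37 ± 0.07 (adjusted p = 0.0135 by limma).

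Mta3 (ENSMUSG00000055817, chromosome 17, 83706163 to 83821516, plus strand), a subunit of the NuRD chromatin remodelling complex, was the one gene of these 5 that rose. Its normalized counts were 2637, 2507, 2355, 2396 and 2460 in WT fluoxetine females and 2050.4, 1973, 2065, 2226 and 2315 in WT fluoxetine males, against 1814, 2194, 1981 and 1946 in WT vehicle females and 1899, 1585, 1724 and 2066 in WT vehicle males. The females were separated between the treatments and the males overlapped. How many of all genes tested were separated in this way within a sex was not counted. Over both sexes it rose by 0.27 ± 0.05 (adjusted p = 0.00298 by limma).

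**Figure D2:**
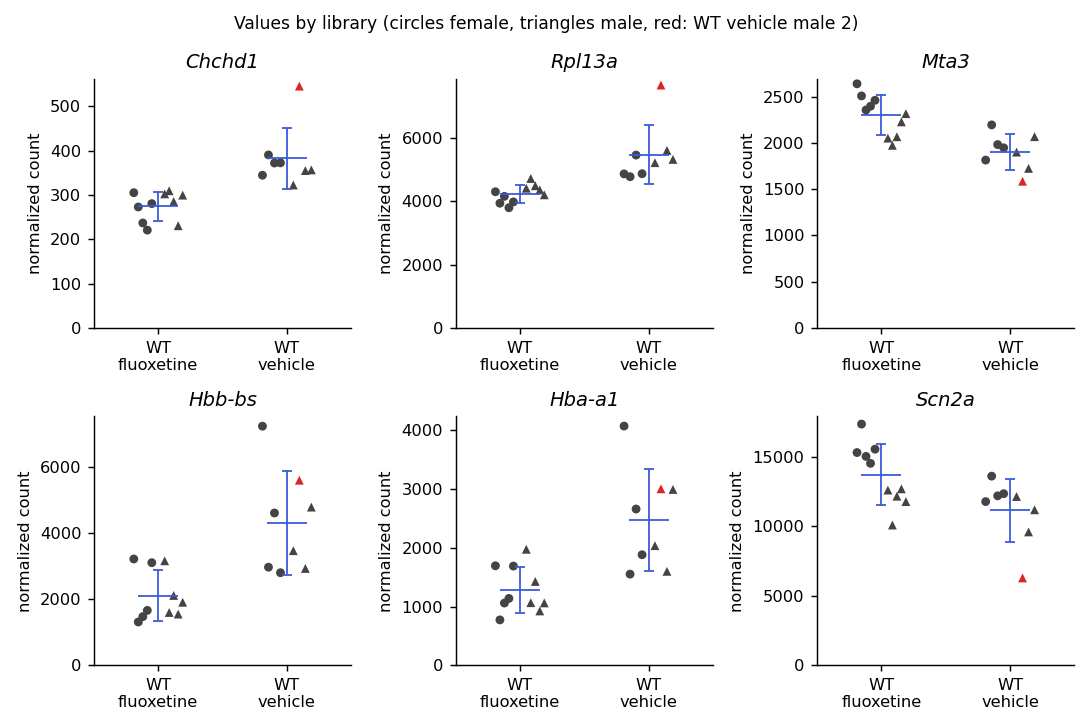
Normalized counts by library for 6 genes (y axis from 0), with WT fluoxetine left of WT vehicle; circles are females, triangles males, red marks WT vehicle male 2, and bars show the mean and SD (n = 10 and 8). The groups do not overlap for Chchd1 and Rpl13a, overlap for the others, and for Scn2a the red point, at 6297, lies below all the rest.

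With both sexes together, groups that did not overlap were rare: among all genes tested there were 10 (0.06%), of which 7 were called. Within a sex the groups are smaller and separate more easily, and no such share was counted. These 7, some chosen after their values were seen, were Chchd1, Rpl13a, Rpl17, Atp5e, Lsm7, Ssna1 and Col9a2, and all were lower under fluoxetine. Rpl17 is a ribosomal protein, Atp5e the epsilon subunit of ATP synthase, Lsm7 a subunit of the LSm ring that binds U6 RNA, and Col9a2 a collagen chain. Ssna1 encodes a microtubule-associated protein of centrosomes.

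Among the 81 cytosolic ribosomal protein genes tested, 22 fell and none rose. Of the 81, 80 had lower estimates under fluoxetine and 62 did so at an unadjusted p under 0.05, while the median log2 change was -0.18, against 0.003 over all genes tested. The list mean per library, as a log2 deviation from the mean of all libraries, ran from -0.15 to 0.15 in WT fluoxetine and from 0.02 to 0.59 in WT vehicle libraries, with WT vehicle male 2 the highest and the next at 0.23. Without that library the median of the list was -0.13 and 2 members were called, Rpl13a and Rpl41. Other single libraries also moved the count by more than 1.5 times: it was 8, 10 and 13 without WT fluoxetine males 4, 5 and 1, it was 11 without WT vehicle female 3 or 4, and it was 35 and 37 without WT vehicle males 4 and 1.

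Rpl24, a protein of the large subunit, had the largest fall among the 22 called members. Its normalized counts in WT fluoxetine libraries ran from 1298 to 2281, with a median of 1948, and in WT vehicle libraries from 2176 to 4392, with a median of 2468. All 10 fluoxetine libraries lay below the vehicle median, and the change was -0.51 ± 0.11 (adjusted p = 0.0164 by limma). Rpl36 and Rpl9, also of the large subunit, each fell by 0.35 ± 0.07 (adjusted p = 0.0135 for both by limma), and Rpl17 fell by 0.24 ± 0.05 with the same adjusted p. Many ribosomal protein genes have near-identical processed pseudogenes in the mouse genome, so the split of reads between a gene and its copies is uncertain. One such copy, Rpl14-ps1, was called as a rise: it ran from 71.1 to 469 in WT fluoxetine libraries and from 0 to 362 in WT vehicle libraries, with a vehicle median of 0.

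Subunits of oxidative phosphorylation encoded in the nucleus moved the same way over both sexes, with 13 of 78 called, all falls, and a median of -0.14. Their median was -0.04 in females and -0.215 in males, against -0.14 and -0.24 for the ribosomal list. Without WT vehicle male 2 the male medians of these 2 lists were -0.08 and -0.12. Atp5e, the epsilon subunit of ATP synthase (chromosome 2), ran from 1006 to 1359 in WT fluoxetine and from 1380 to 1994 in WT vehicle libraries. The groups did not overlap, and the gene fell by 0.43 ± 0.08 (adjusted p = 0.0128 by limma). Cox7a2, of cytochrome c oxidase, fell by 0.29 ± 0.06 (adjusted p = 0.0135 by limma). Ndufs4 and Ndufb6, both of complex I, fell by 0.32 ± 0.07 and 0.23 ± 0.05 (adjusted p = 0.0162 and 0.019 by limma). The 13 subunits encoded in mitochondrial DNA had a median of -0.002, with none called (0 of 13 also at an unadjusted p under 0.05). Without WT vehicle male 2 the nuclear list had a median of -0.07 and no called member. The count of 13 became 8, 8, 8, 3 and 6 without WT fluoxetine females 1 and 2 and males 1, 4 and 5, became 7 and 4 without WT vehicle females 3 and 4, and became 22 without WT vehicle male 1.

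Related lists of short housekeeping proteins showed fewer calls. Of the 78 mitochondrial ribosomal proteins in the list, which does not include Chchd1, 1 fell, and the median was -0.08. This was Mrpl53 (-0.32 ± 0.07, adjusted p = 0.0182 by limma). Of 22 spliceosomal Sm and LSm proteins, 1 fell, Lsm7 (-0.30 ± 0.06, adjusted p = 0.0135 by limma), and the median was -0.11. None of 31 proteasome subunits was called, 9 were lower at an unadjusted p under 0.05, and the median was -0.08. Psmb3 and Psmb4, beta subunits of the proteasome core, were at -0.20 ± 0.06 and -0.21 ± 0.06 (adjusted p = 0.0752 and 0.0787 by limma). Medians in females and males were -0.02 and -0.14 for the mitochondrial ribosomal proteins and 0.01 and -0.17 for the proteasome. For the Sm and LSm proteins they were -0.10 and -0.13. With WT vehicle male 2 left out, the medians over both sexes were -0.03 for the mitochondrial ribosomal proteins, -0.06 for the Sm and LSm proteins and -0.01 for the proteasome. No member of these lists was then called, while Chchd1, outside them, still was. Other single libraries moved the counts as well. Mitochondrial ribosomal calls were 2 without WT vehicle female 1 or male 4 and 4 without WT vehicle male 1. Calls of Sm and LSm proteins were 2 without WT fluoxetine female 3 or male 3, and 3 without WT fluoxetine male 2 or WT vehicle male 1, 3 or 4. Proteasome calls were 1 without WT vehicle female 1 and 3 without WT vehicle male 1, 3 or 4.

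The largest falls belonged to genes of red blood cells. Hbb-bs and Hbb-bt, the beta globin genes of adult mice, Hba-a1, an alpha globin gene, and Alas2, the first enzyme of haem synthesis in erythroid cells, fell by 0.87 to 1.09 on the log2 scale. Their promoters are shown because these 4 genes fell together. Each sequence is the 250 bases before the annotated start, read 5′ to 3′ on the strand of the gene, from RefSeq on GRCm38.p6. Capitals mark the motif CACCC, the CCAAT box, the motif GATAA or the motif TATAA on either strand, which are letters known from erythroid promoters and the TATA box. The windows are chr7:103827929-103828178 (minus strand) for Hbb-bs, chr7:103813924-103814173 (minus strand) for Hbb-bt, chr11:32283422-32283671 (plus strand) for Hba-a1 and chrX:150547167-150547416 (plus strand) for Alas2.
Hbb-bs: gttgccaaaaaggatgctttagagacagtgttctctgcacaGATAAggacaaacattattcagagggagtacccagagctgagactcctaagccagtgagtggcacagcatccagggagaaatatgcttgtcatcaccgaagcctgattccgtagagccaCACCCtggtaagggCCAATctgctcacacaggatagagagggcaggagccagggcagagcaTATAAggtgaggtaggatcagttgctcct
Hbb-bt: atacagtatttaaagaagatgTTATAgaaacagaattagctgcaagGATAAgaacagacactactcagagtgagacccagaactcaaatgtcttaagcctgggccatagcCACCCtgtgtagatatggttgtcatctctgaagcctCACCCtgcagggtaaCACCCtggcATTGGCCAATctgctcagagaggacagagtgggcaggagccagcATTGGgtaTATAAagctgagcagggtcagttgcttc
Hba-a1: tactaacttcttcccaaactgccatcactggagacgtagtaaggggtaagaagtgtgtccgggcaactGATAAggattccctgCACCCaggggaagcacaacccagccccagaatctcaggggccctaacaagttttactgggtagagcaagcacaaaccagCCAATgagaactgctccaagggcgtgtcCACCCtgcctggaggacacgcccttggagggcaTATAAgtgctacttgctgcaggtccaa
Alas2: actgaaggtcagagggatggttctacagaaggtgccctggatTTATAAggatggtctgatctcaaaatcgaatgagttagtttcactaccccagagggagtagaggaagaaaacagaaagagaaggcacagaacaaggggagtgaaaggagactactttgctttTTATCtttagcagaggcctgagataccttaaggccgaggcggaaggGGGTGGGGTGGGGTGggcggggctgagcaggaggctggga
The 3 globin windows held all 4 motifs, and the Alas2 window held all of them but the CCAAT box. Of the 32851 promoter windows of this length in the table, 52.0% held the motif CACCC, 33.9% the CCAAT box, 22.6% the motif GATAA and 22.8% the motif TATAA on either strand. In the Alas2 window the TATAA motif overlaps its own reverse complement, with first bases at -208 and -207 from the annotated start. In the Hbb-bs, Hbb-bt and Hba-a1 windows it lies at -29, -28 and -27, and in Hbb-bt also at -229. The Alas2 window thus does not share the TATAA position common to the globin windows. A match is a description of the letters and not of binding.

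Hbb-bs (ENSMUSG00000052305) had normalized counts of 3223, 1315, 1477, 1665 and 3110.0 in WT fluoxetine females and 3167, 1603, 2119, 1555 and 1911 in WT fluoxetine males, against 7244, 2974, 4615 and 2807 in WT vehicle females and 3474, 5607, 2936 and 4793 in WT vehicle males. All 10 fluoxetine libraries lay below the vehicle median, and 3 of them, at 3110.0 to 3223, lay above the lowest vehicle libraries. The change was -1.03 ± 0.22 (adjusted p = 0.0167 by limma), and nearly the same in females (-1.03) and males (-1.02). Hbb-bt ran from 196 to 485 in WT fluoxetine and from 444.4 to 1286 in WT vehicle libraries (-1.09 ± 0.28, adjusted p = 0.0456 by limma). Hba-a1 ran from 773 to 1973 in WT fluoxetine and from 1551 to 4066 in WT vehicle libraries (-0.93 ± 0.22, adjusted p = 0.036 by limma). Its near-identical neighbour Hba-a2 was at 2128 ± 745 in WT fluoxetine and 4040.0 ± 1498 in WT vehicle libraries (SD, n = 10 and 8; -0.92 ± 0.25, adjusted p = 0.053 by limma).

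Alas2 ran from 35.8 to 136 in WT fluoxetine and from 93.6 to 248 in WT vehicle libraries (-0.87 ± 0.23, adjusted p = 0.0496 by limma). Reads shared between Hba-a1 and Hba-a2, or between Hbb-bs and Hbb-bt, could be split either way by the counting. The list of 8 tested red cell genes had a median of -0.90 with 4 called; among its members, Bpgm and Fech, which brain cells also express, were at -0.12 and -0.005. In bulk tissue, fewer cells of a type and less RNA per cell cannot be told apart. When WT vehicle male 2 was left out, limma called none of the 4, with changes of -0.95, -1.02, -0.87 and -0.78 for Hbb-bs, Hbb-bt, Hba-a1 and Alas2 (adjusted p = 0.0972, 0.154, 0.122 and 0.181). Of the 18 fits that left out a library, Hbb-bs passed in 17, Hba-a1 in 12, Alas2 in 6 and Hbb-bt in 5. The list count of 4 was 1 without WT fluoxetine female 2, WT fluoxetine male 4 or 5, or WT vehicle female 1 or 3, and 2 without WT fluoxetine female 3 or 4, WT fluoxetine male 2 or 3, WT vehicle female 4 or WT vehicle male 4.

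Markers of vessels and of other non-neuronal cells did not reach the threshold. Of 28 endothelial and mural markers none was called and 4 were lower at an unadjusted p under 0.05, with a median of -0.06. Cldn5, the tight junction protein of brain endothelium, was at 871 ± 81.5 in WT fluoxetine and 1038 ± 121 in WT vehicle libraries (SD, n = 10 and 8; adjusted p = 0.167 by limma). None of 24 microglial, 26 astrocyte, 28 oligodendrocyte, 14 oligodendrocyte precursor and 22 leptomeningeal markers was called either. Their medians were -0.05, -0.02, 0.03, -0.09 and -0.10, and the numbers at an unadjusted p under 0.05 were 1, 2, 2, 3 and 3. Lists of neurotrophic, clock, perineuronal net, interneuron, choroid plexus and adjacent-region genes had no call either, with medians from -0.11 to 0.05. Nor did 28 genes of the unfolded protein and heat shock responses, of which 14 were lower and 1 higher at an unadjusted p under 0.05 (median -0.16).

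By adjusted p, the genes that rose were led by Mta3, Edil3 and Map2k6. Edil3, which encodes a secreted integrin ligand, ran from 2746 to 3298 in WT fluoxetine and from 2380 to 2913 in WT vehicle libraries (0.23 ± 0.05, adjusted p = 0.0135 by limma). Map2k6, a kinase that activates p38 MAP kinases, ran from 288 to 390 in WT fluoxetine and from 200 to 305 in WT vehicle libraries (0.29 ± 0.06, adjusted p = 0.0164 by limma). The ranges of both genes overlapped, although each passed in 17 of the 18 fits that left out 1 library. Rises of 0.18 to 0.41 were called for Nr2c2, a nuclear receptor, Pik3r1, the regulatory subunit of phosphoinositide 3-kinase, Adam22, a synaptic receptor for LGI1, Frrs1l, which takes part in the assembly of AMPA receptors, Fmn1, a formin that nucleates actin, and Cdc73, a subunit of the PAF1 transcription complex.

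Apart from predicted genes and pseudogenes, the largest rises were in Runx1, Pakap, Zbtb16, Iqcg, Fmn1 and Ntsr1. Runx1, a transcription factor of blood cells and of some neurons, was low, at 48.7 ± 13.7 in WT fluoxetine and 30.6 ± 9.37 in WT vehicle libraries (SD, n = 10 and 8), with a change of 0.66 ± 0.17 (adjusted p = 0.0379 by limma). Pakap ran from 693 to 1233 in WT fluoxetine and from 138 to 991 in WT vehicle libraries, where WT vehicle male 2 held the 138 and the next lowest was 614. Its change was 0.65 ± 0.17 (adjusted p = 0.0443 by limma) and 0.37 without that library (adjusted p = 0.136), which is the only one of these 6 that moved by more than 1.5 times. Zbtb16, a zinc finger repressor that glucocorticoids induce, changed by 0.65 ± 0.16 (adjusted p = 0.0436 by limma). It was the 1 called member of 22 glucocorticoid and FOXO target genes, whose median was -0.04.

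Voltage-gated channels shape the firing of cortical neurons, and 4 of 44 such genes were called, all as rises, with a list median of 0.14. Estimates were higher for 37 of the 44, and for 19 at an unadjusted p under 0.05. Scn2a (ENSMUSG00000075318, chromosome 2), the sodium channel of excitatory neurons, had 15323, 17372, 15045, 14544 and 15566 in WT fluoxetine females and 12620.2, 10105, 12179, 12710 and 11794 in WT fluoxetine males, against 11794, 13623, 12207 and 12362 in WT vehicle females and 12158, 6297, 9609 and 11201 in WT vehicle males. Fluoxetine females all lay above vehicle females, while the males overlapped. The share of all genes tested that separate within a sex was not counted, so this does not show an effect limited to females. The change was 0.32 ± 0.08 (adjusted p = 0.0383 by limma). Kcna2, a potassium channel of axons, rose by 0.25 ± 0.06, Kcnh7, of the erg family, by 0.32 ± 0.08, and Cacna2d1, an auxiliary calcium channel subunit that binds gabapentin, by 0.19 ± 0.05 (adjusted p = 0.0406, 0.0341 and 0.0491 by limma). The list median was 0.09 without WT vehicle male 2 and none was called. Nor was any called without WT fluoxetine females 2 or 5, WT fluoxetine males 1, 4 or 5, or WT vehicle females 3 or 4; the count was 1 without WT fluoxetine female 1 or male 3, 2 without WT fluoxetine female 4, and 9 and 12 without WT vehicle males 4 and 1.

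Synaptic genes showed few calls. Of 53 genes of the glutamatergic postsynapse, 2 rose, Dlgap1, a scaffold that binds Shank proteins (0.14 ± 0.03, adjusted p = 0.0367 by limma), and Nlgn1, the adhesion protein of excitatory synapses (0.21 ± 0.06, adjusted p = 0.0491 by limma), and the median was 0.07. Dlgap1 passed in 8 and Nlgn1 in 4 of the 18 fits that left out a library, and neither did without WT vehicle male 2, when the list median was 0.03. None of 24 GABA system genes was called, with 9 higher at an unadjusted p under 0.05 and a median of 0.08. Among them Gabrb2, a GABA-A receptor subunit, was at 4551 ± 767 in WT fluoxetine and 3686 ± 926 in WT vehicle libraries (SD, n = 10 and 8; adjusted p = 0.0714 by limma). None of 40 presynaptic vesicle genes was called, with 7 higher at an unadjusted p under 0.05 and a median of 0.07. Of 57 clustered protocadherins none was called, with 14 higher and 1 lower at an unadjusted p under 0.05 and a median of 0.14. Of 29 markers of excitatory cortical layers, 1 rose, Ntsr1, and the median was 0.09, with 0.17 in females and -0.04 in males. Without WT vehicle male 2 the median of these markers was 0.07 and none was called. Ntsr1 lost its call in 18 of 30 settings, fits that left out a library included. Of 40 autism risk genes for chromatin and transcription regulators, 1 rose, Tcf20 (0.25 ± 0.07, adjusted p = 0.0485 by limma), and the median was 0.10. With WT vehicle male 2 left out, that median was 0.04 and none of the 40 was called. Tcf20 passed in 4 of the 18 fits that left out a library, and the list count was 6 and 2 without WT vehicle males 1 and 3.

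The serotonin system itself showed no call: 0 of 18 tested members passed, 2 were higher at an unadjusted p under 0.05, and the median was -0.005. Slc6a4, the target of fluoxetine, was too low to test, at 0 to 6.54 in WT fluoxetine and 0 to 9.82 in WT vehicle libraries, with medians of 2.59 and 2.93. Fev, the transcription factor of serotonin neurons, and Htr3b had medians of 0 in both groups, and Htr2b medians of 2.34 and 1.83. Slc6a4 and Fev were thus at or near 0 in this tissue. Tph2, the enzyme that makes serotonin in neurons, ran from 18.3 to 39.6 in WT fluoxetine and from 21.1 to 33.1 in WT vehicle libraries (-0.18 ± 0.17, adjusted p = 0.666 by limma).

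The receptors that cortical cells express were measured with more precision. Htr2a, the excitatory receptor of pyramidal neurons, ran from 1897 to 2376 in WT fluoxetine, with a median of 2133, and from 1601 to 2337 in WT vehicle libraries, with a median of 1985 (0.13 ± 0.06, unadjusted p = 0.0385, adjusted p = 0.29 by limma). Htr5a, an inhibitory receptor, ran from 654 to 849 in WT fluoxetine, with a median of 763, and from 665 to 784 in WT vehicle libraries, with a median of 708 (0.12 ± 0.06, unadjusted p = 0.0444, adjusted p = 0.309 by limma). The groups overlapped widely for both. Htr1a, the inhibitory receptor that is also the autoreceptor of raphe neurons, ran from 449 to 794 in WT fluoxetine and from 477 to 772 in WT vehicle libraries (0.07 ± 0.08, adjusted p = 0.722 by limma). Htr2c, an excitatory receptor, was at 1693 ± 364 in WT fluoxetine and 1605 ± 506 in WT vehicle libraries (SD, n = 10 and 8; adjusted p = 0.769 by limma). The ion channel receptor subunit Htr3a was at 243 ± 30.7 and 253 ± 50.7 (adjusted p = 0.86 by limma), and Maoa, which degrades serotonin, at 1020.4 ± 71.5 and 1008 ± 70.3 (adjusted p = 0.922 by limma). Changes of Htr1b, Htr1d, Htr1f, Htr4, Htr5b, Htr6, Htr7, Ddc, Maob, Slc18a2 and Tph1 lay between -0.23 and 0.23, with adjusted p of 0.549 or more by limma.

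Transcript length differed between the genes that fell and those that rose. The median transcript length was 643 bases for the called falls, 2591 for the called rises and 1560 for all genes tested. Over 10 equal classes of length, the median change of all genes went up from -0.04 in the shortest class, which held 45 of the falls and 3 of the rises, to 0.06 in the longest, which held 15 rises and no fall. Leaving out WT vehicle male 2, these medians were -0.02 and 0.02. A length trend was computed for each library, the Spearman correlation across genes between transcript length and the deviation of the library from the mean of the others. It was 0.03 ± 0.05 in WT fluoxetine and -0.08 ± 0.12 in WT vehicle libraries (SD, n = 10 and 8; exact two-sided permutation p = 0.00944), and -0.331 in WT vehicle male 2. Without that library the vehicle mean was -0.05 ± 0.07 (n = 7; exact two-sided permutation p = 0.0255).

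With the length trend of each library as a term in the fit, limma called 0 genes for fluoxetine against vehicle. The medians of the ribosomal, respiratory chain and channel lists were then -0.06, -0.02 and 0.06, and that of the red cell genes -0.96. The part of RNA quality or library preparation in the length trend was not tested, since the files hold no measure of either.

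**Figure D3:**
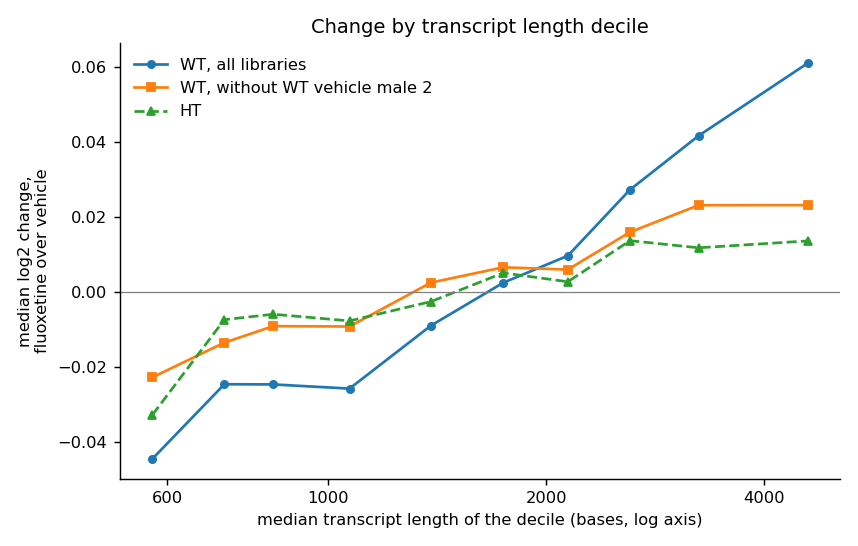
Median log2 change, fluoxetine over vehicle (y axis), of the genes in each of 10 classes of transcript length (x axis, median length of the class in bases, log axis), for WT, for WT without WT vehicle male 2, and for HT. All 3 lines go up with length, from -0.04 to 0.06 in WT and over a smaller span in the other 2.

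The number of genes called depended on single libraries. Leaving out WT fluoxetine female 1, 2 or 5 gave 84, 54 and 93 calls, and leaving out WT fluoxetine male 1, 4 or 5 gave 53, 28 and 40. Leaving out WT vehicle female 3 or 4 gave 38 and 45, and leaving out WT vehicle male 1, 2 or 4 gave 563, 5 and 289. The other 7 libraries moved the count of 140 by less than 1.5 times. The 2 extremes both belong to vehicle males, of which only 4 were sequenced.

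**Figure D4:**
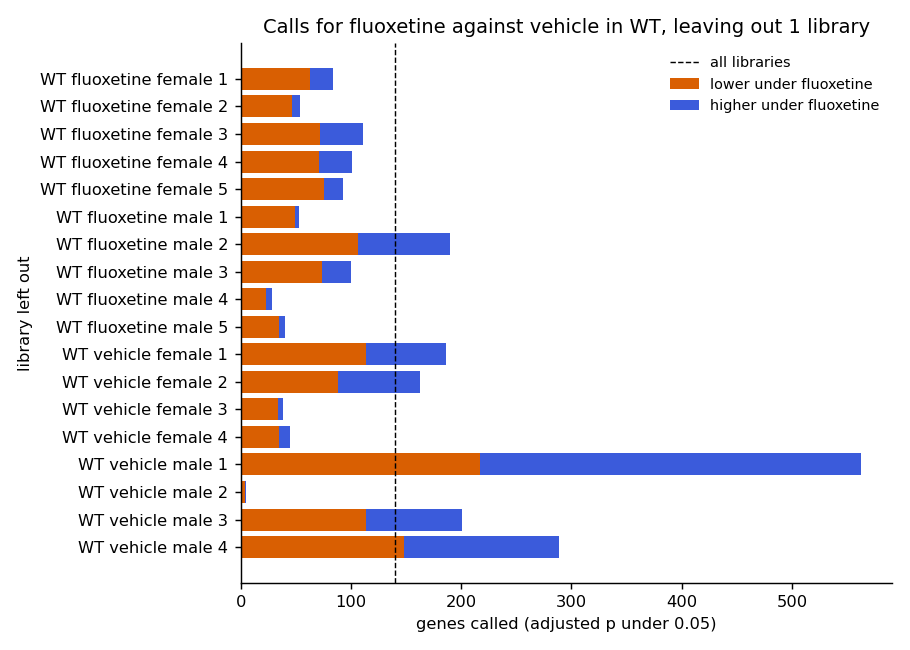
Genes called for fluoxetine against vehicle in WT (x axis) after leaving out the library named on the y axis, split into falls and rises; the dashed line marks the 140 calls with all libraries. The bar is shortest, at 5, without WT vehicle male 2 and longest, at 563, without WT vehicle male 1.

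The question whether fluoxetine acted alike in the sexes was addressed by fitting the effect in each sex and the difference of the effects. All 140 genes had the same direction in females and males, and 105 had the larger estimate in males. These genes were called on the mean of the female and male effects, which favours a shared direction. Their agreement therefore does not show that fluoxetine acted alike in the sexes. The male estimates also include WT vehicle male 2. In females 3 genes were called (0.018%): Ntsr1 and Igsf8 rose (0.012%) and Nrf1 fell (0.006%; adjusted p = 0.0362 for each by limma). In males 472 were called (2.83%), 261 as rises (1.57%) and 211 as falls (1.27%), and without WT vehicle male 2 limma called 0, with 1462 at an unadjusted p under 0.05. The female minus male difference was called for 422 genes (2.53%), higher for 149 (0.894%) and lower for 273 (1.64%), and for 8 without that library.

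Ntsr1, the neurotensin receptor that marks corticothalamic neurons of layer 6, had 349, 404, 327, 382 and 395 in WT fluoxetine females, against 263, 171, 185 and 279.9 in WT vehicle females. In males it had 221, 271, 245, 229 and 228 in WT fluoxetine libraries, against 279, 245, 218 and 188 in WT vehicle libraries. The females were separated and the males overlapped. For this gene and those below, the share of all genes tested that separate within a sex was not counted. Its change was 0.75 ± 0.15 in females and 0.05 ± 0.15 in males, and the difference missed the threshold (adjusted p = 0.0544 by limma). Igsf8, an immunoglobulin superfamily protein of synapses, rose by 0.37 ± 0.07 in females, with -0.14 ± 0.07 in males, and this difference was called (adjusted p = 0.0132 by limma). Nrf1, a transcription factor for nuclear genes of mitochondrial function, fell by 0.49 ± 0.10 in females, with -0.07 ± 0.10 in males.

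Junb, an activity-regulated transcription factor, had 873, 1102, 701, 612 and 713 in WT fluoxetine males, against 1881, 2417, 1338 and 1316 in WT vehicle males. In females it had 1509.7 to 1897 in WT fluoxetine and 1514 to 2230 in WT vehicle libraries. The males were separated and the females overlapped. It fell by 1.10 ± 0.22 in males (adjusted p = 0.0109 by limma) and was at 0.007 ± 0.22 in females, and the difference was called (adjusted p = 0.044 by limma). Of 28 immediate early genes, which neurons switch on within minutes of activity, 6 fell in males and none in females, and the list median was -0.54 in males and -0.07 in females. Only 3 of all genes tested were called in females, so these counts do not compare the sexes. The difference itself was called for 2 of the 28, with the higher effect in females. Over both sexes none was called, 14 were lower at an unadjusted p under 0.05, and the median was -0.30. Arc and Npas4, chosen after their values were seen, were at -0.70 ± 0.25 and -0.64 ± 0.23 (adjusted p = 0.157 and 0.158 by limma). Leaving out WT vehicle male 2, the median of the list in males was -0.43 and none was called.

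Zbtb16 went the other way in males. It had 1873, 1741, 1876, 1867 and 1919 in WT fluoxetine males, against 724, 371, 1588 and 928 in WT vehicle males, with no overlap. Its change was 1.22 ± 0.23 in males and 0.07 ± 0.23 in females. Cholesterol synthesis genes had 11 of 27 called as falls in males and none in females, with medians of -0.30 and 0.03. Here too the counts do not compare the sexes, and the difference itself was called for 3 of the 27, with the higher effect in females. Over both sexes 2 fell: Fdps, farnesyl diphosphate synthase (-0.29 ± 0.07, adjusted p = 0.0291 by limma), and Tm7sf2, a sterol reductase (-0.22 ± 0.06, adjusted p = 0.0491 by limma). With that same vehicle male 2 left out, the male median of this list was -0.29 with none called.

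Markers of regions next to the prefrontal cortex differed between libraries along with sex and treatment. The mean of 19 olfactory bulb markers, as a log2 deviation from the mean of all libraries, was 0.87 to 1.74 in all 5 WT fluoxetine males and -1.13 to -0.15 in all 5 WT fluoxetine females, against -0.98 to 0.68 in WT vehicle males and -0.85 to 1.99 in WT vehicle females. Their summed normalized counts ran from 17834 to 46213 in WT fluoxetine and from 16859 to 53781 in WT vehicle libraries. The mean of 24 markers of striatal projection neurons was -0.52 to -0.29 in WT fluoxetine males and -0.42 to 1.69 in WT fluoxetine females, against -0.62 to 1.93 in WT vehicle males and -0.58 to 1.73 in WT vehicle females. Summed, they ran from 22613 to 61077 in WT fluoxetine and from 21262 to 72102 in WT vehicle libraries. None of either list was called over both sexes, and of the olfactory bulb markers 6 had a lower and 1 a higher effect in females than in males.

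With the 2 marker means as terms in the fit, limma called 0 genes for the difference between the sexes and 254 for fluoxetine over both sexes. Of the genes with the smallest adjusted p for the difference, Gipr, the receptor of an incretin hormone, had 38.8 to 50.4 in WT fluoxetine females and 112 to 175 in WT fluoxetine males, against 73.6 to 213 in WT vehicle females and 56.8 to 89.2 in WT vehicle males. Pappa, a protease that cleaves IGF binding proteins, and Acan, the main proteoglycan of perineuronal nets, were likewise lower in every WT fluoxetine female than in every WT fluoxetine male. These genes were chosen by the difference, so this separation is no separate test of it. The share of all genes tested that separate in this way was not counted. Pappa had 12.1 to 18.4 in WT fluoxetine females and 45.4 to 75.0 in WT fluoxetine males, against 21.8 to 87.5 in WT vehicle females and 8.66 to 44.0 in WT vehicle males. Acan had 86.4 to 107 in WT fluoxetine females and 203 to 268 in WT fluoxetine males, against 134 to 256 in WT vehicle females and 77.3 to 199 in WT vehicle males. The sex differences of Gipr, Pappa and Acan were -2.07 ± 0.38, -2.70 ± 0.50 and -1.75 ± 0.35 (adjusted p = 0.0106, 0.0106 and 0.0132 by limma). Without WT vehicle female 1, whose olfactory bulb mean was 1.99, the difference was called for only 1 of all genes tested. Sox8, a transcription factor of oligodendrocytes, and Cdh9, a cadherin, differed by 0.80 ± 0.13 and 1.14 ± 0.24 (adjusted p = 0.003 and 0.0132 by limma). Oligodendrocyte markers had medians of 0.45 in females and -0.37 in males, with list means of -0.13 to 0.59 in WT fluoxetine females and -0.31 to 0.19 in WT fluoxetine males, against -0.54 to 0.37 in WT vehicle females and -0.13 to 0.52 in WT vehicle males.

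Counts within the sexes also rested on single libraries. In females 0 genes were called without any 1 of the 5 WT fluoxetine females or without WT vehicle female 1 or 3, and 177 and 174 without WT vehicle female 2 or 4. In males the count was 174, 206, 30 and 93 without WT fluoxetine males 1, 2, 4 and 5, and 1398, 1410 and 881 without WT vehicle males 1, 3 and 4. The count of differences was 200, 242, 264 and 257 without WT fluoxetine females 2, 3, 4 and 5, and 45, 215 and 242 without WT fluoxetine males 2, 4 and 5. It was 1, 823 and 837 without WT vehicle females 1, 2 and 4, and 662 and 1359 without WT vehicle males 1 and 3.

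The same drug was given to HT mice, whose fluoxetine and vehicle libraries are separate from those of WT. Of the 86 genes that fell in WT, 81 were also lower in HT, against 50.2% of all genes tested. Of those 81, 66 reached an unadjusted limma p under 0.05 in that direction, against 7.6% of all genes tested. Of the 54 that rose in WT, 40 were higher in HT and 10 reached an unadjusted p under 0.05, against 6.98% of all genes tested. The median change of the falls was -0.28 in WT and -0.18 in HT, and that of the rises was 0.25 in WT and 0.03 in HT. In HT, 55 genes were called (0.33%), of which 21 were also called in WT (15% of the 140 and 38.2% of the 55), and all 21 were falls.

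Among these 21, named here by the same rule as above, were Rpl13a (-0.27 ± 0.07 in HT), Rpl41, Atp5e, Rpl17, Mtln, Cox7a2, Ndufs4 and Rpl24. Mtln fell by 0.36 in HT, against 0.37 in WT, and Cox7a2 by 0.29 in both genotypes. The list medians in HT were -0.12 for the ribosomal proteins, with 9 called, and -0.11 for the nuclear respiratory chain genes, with 7 called. Hbb-bs was at -0.30, Hbb-bt at -0.44, Hba-a1 at -0.21 and Alas2 at 0.04 in HT, with adjusted p of 0.44 or more by limma. The channel genes had a median of 0.006 in HT and none was called; Scn2a was at 0.003 ± 0.07 (adjusted p = 0.989 by limma).

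The test of the difference itself, the WT effect minus the HT effect, called 0 genes by limma, with 1285 at an unadjusted p under 0.05 and a smallest adjusted p of 0.492. Of the 54 rises, 39 were among those 1285, as were 16 of the 86 falls, but these genes were chosen by the WT effect, which enters the difference. The length trend was 0.02 ± 0.09 in HT fluoxetine and -0.05 ± 0.06 in HT vehicle libraries (SD, n = 10 each; exact two-sided permutation p = 0.0394). In lithium libraries it was 0.05 ± 0.08 in WT and 0.07 ± 0.08 in HT (SD, n = 9 and 10). The count of 55 in HT ran from 19 to 171 when each of its 20 libraries was left out.

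**Figure D5:**
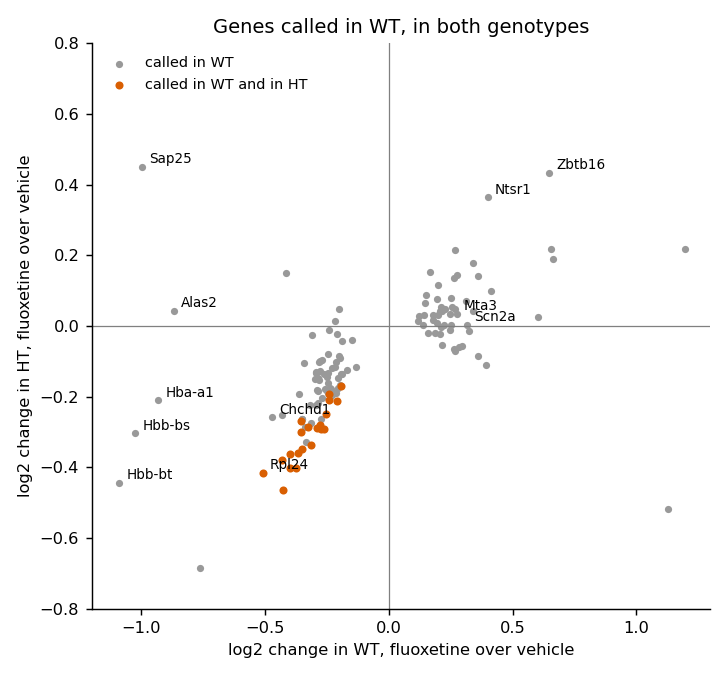
Log2 change in HT (y axis) against that in WT (x axis), both fluoxetine over vehicle, for the genes called in WT, with those also called in HT in orange; Rpl14-ps1, at 5.22 in WT, lies outside the axes. The 21 orange points all lie in the lower left, most rises lie near 0 on the y axis, and Alas2 and Sap25 are lower in WT and not in HT.

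Lithium in WT was compared with the same 8 vehicle libraries, so its values stand beside those of fluoxetine only as a description. It had 1421 calls (8.53%), 908 rises (5.45%) and 513 falls (3.08%). The genes that fell under fluoxetine had a median of -0.28 under fluoxetine and -0.22 under lithium, and those that rose 0.25 and 0.27. The ribosomal list had medians of -0.18 under fluoxetine and -0.22 under lithium, the nuclear respiratory chain list -0.14 and -0.06, the channel list 0.14 and 0.14, and the red cell list -0.90 and -0.51. Without WT vehicle male 2, which both drugs share as a control, lithium had 909 calls.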

How the data were processed

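Stranded poly(A) libraries of prefrontal cortex were sequenced, per the labels' protocols. The authors deposited normalized estimated counts, a signal with no value under zero, for 51456 gene IDs, of which 51285 matched a symbol. The submitters' processing notes name Salmon 0.11.2, R 3.6.0, DESeq2 1.19.11 and the build GRCm38, while their annotation, filters and strand setting were not given in the sources used here. Because the table is normalized, limma 3.58.1 in R 4.3.3 was used, with its trend and robust options, on values logged as log2(value + 1), in 1 fit of 57 libraries and 12 groups of genotype, drug and sex. Low genes have their changes understated by the pseudocount of 1, and 1238 tested genes lie near the minimum mean of 10. Depth in reads is unknown. Gene positions come from GENCODE vM21 (GRCm38, 1-based), and transcript length is the median over the transcripts of a gene.

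Named genes are Shank2 and Slc6a4; by adjusted p the 12 leading genes in each direction, and by size of change the 6 leading ones, predicted genes and pseudogenes passed over; up to 4 called members of each of 33 lists, or 2 members where none was called; the tested serotonin genes; and 5 rises and 5 falls within a sex and for differences of effects. Some that the rule selects are not in the text, while Hba-a2, Arc, Npas4, Bpgm, Fech, Rpl14-ps1, Ssna1 and Col9a2 lie outside it and were chosen after their values were seen. The members, lists and tests were chosen with earlier results of these data known. The script was tested on simulated data.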

Additional observations from a re-analysis of the deposited data

Results flagged for a closer look

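In 218 groups of libraries, a gene or list mean was examined for a single library far from the others by Dixon's criterion at 95%, which chance meets in about 1 in 20 groups; 35 were flagged. Most concern WT vehicle male 2 among the 8 WT vehicle libraries. Many of the genes examined were named because they were called with that library in the fit, and they are not independent of each other. The 35 flags therefore cannot be weighed against that rate. It was highest for the list means of cytosolic ribosomal proteins (0.594, others 0.02 to 0.23) and nuclear respiratory chain genes (0.578, others -0.10 to 0.12), and lowest for voltage-gated channels (-0.455, others -0.17 to 0.04).

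The same library held the highest normalized count for Chchd1 (546), Rpl13a (7665), Rpl17 (5633), Cox7a2 (4574), Rpl36 (2291), Rpl9 (6581), Lsm7 (995), Atg4d (854), Rpl24 (4392), Ndufs4 (2287), Ndufb6 (1615), Psmb3 (2367), Psmb4 (3408) and Fdps (2133). It held the lowest for Map2k6 (199.6), Nr2c2 (3168), Adam22 (5472), Kcnh7 (2913), Nol4l (2025), Pakap (138), Sap25 (17.5), Scn2a (6297), Kcna2 (5157), Cacna2d1 (6596), Tnr (5222) and Prox1 (269).

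Other libraries stood apart for single genes. WT fluoxetine female 5 was high for Tph2 (39.6, others 18.3 to 23.6), WT fluoxetine male 2 low for Htr1a (449, others 651 to 794), WT fluoxetine female 4 high for Htr1d (231, others 43.3 to 89.7) and WT fluoxetine female 2 low for Tyrobp (198, others 252 to 294). WT vehicle female 2 was high for Gabra3 (5573, others 4137 to 4671) and WT vehicle female 1 low for Tbr1 (2430, others 3531 to 4636).

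Zbtb16 had a fluoxetine effect that differed between the sexes: the female minus male difference was -1.15 ± 0.33 (adjusted p = 0.0459 by limma), and -0.79 without WT vehicle male 2 (adjusted p = 0.183).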

How the results depend on the processing

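The number of genes called for fluoxetine against vehicle in WT (140 over both sexes, 3 in females, 472 in males, 422 for the difference between the sexes) moved by more than 1.5 times as follows. With no filter beyond a mean above 0 the counts were 41, 19, 163 and 139. With only the compared groups in the fit they were 2, 1, 5 and 1. Array weights gave 154 in females, 5 in males and 4 for the difference, and quantile normalization or a minimum mean of 50 gave 6 in females. A length term gave 0, 0 and 13 for both sexes, females and males. Striatal and olfactory bulb terms gave 254, 0, 38 and 0. In HT (55 calls), no filter gave 23, a minimum mean of 50 gave 93, array weights 365 and a length term 116. For WT lithium (1421 calls), no filter gave 884, only the compared groups 204 and a length term 62.

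With 1 library left out, the counts ran from 5 to 563 over both sexes, 0 to 177 in females, 0 to 1410 in males, 1 to 1359 for the difference between the sexes, 0 to 1 for the difference between the genotypes, 19 to 171 in HT and 796 to 1979 for WT lithium. The length trend difference, 0.109, was 0.0736 without WT vehicle male 2.

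Replicate numbers, as the titles give them, did not pair the libraries: 1 of 8 correlations of same-numbered libraries was over 0.1, and they ran from -0.107 to 0.107. The fit with a replicate block called 25 genes over both sexes, 0 in females, 208 in males and 25 in HT. Library numbers differ from the title numbers in 3 libraries, and 0 of 8 of their correlations were over 0.1 (-0.223 to 0.0904). A replicate block by library number, chosen after seeing the data, called 64 genes over both sexes, 1 in females, 169 in males, 208 for the difference between the sexes and 33 in HT. No called named gene changed direction under the settings run. Of the 33 list medians, 14 changed sign under at least 1 setting, among them neurotrophic signalling (-0.02, and 0.06 without WT vehicle female 1) and, with the length term, mitochondrial ribosomal proteins (0.003) and autism risk genes (-0.006). Of 46 named genes called over both sexes, 46 kept their call under pseudocounts of 0.5 and 5 and median-of-ratios rescaling, 39 under quantile normalization, 19 with the block, 1 with only the compared groups (Rpl41) and 0 with the length term. The filter on the 18 compared libraries, chosen after seeing the data, gave 141 calls.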
